A study of Mus musculus with 8 samples.

Results

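The genes described here were 10 transcripts used to mark tissue macrophages, Aif1, Cd68, Csf1r, Cd163, Mrc1, Trem2, Tyrobp, Itgam, Ptprc and Lyz2, taken by name from the 24421 genes of the deposited count table. All 10 were in the table, and all 10 were among the 17328 genes that passed the filter on low counts. They were followed by RNA sequencing in L3 to L5 dorsal root ganglia (DRG) of wild-type (WT) male C57BL/6J mice, before (0d) and at 1, 3 and 30 days (1d, 3d, 30d) after carrageenan. Carrageenan, a polysaccharide of red seaweeds, causes local inflammation, and 20 µl of a 1% solution went into the left hind paw, while the 0d mice were naive. The mice were aged 8 weeks by the series' description and 8 to 12 weeks by the study's methods. Each time point had 2 libraries, each from the pooled ganglia of 2 to 3 mice, and p-values therefore measure the spread between pools. The labels call the cells DRG neurons, but ganglia were taken whole, from mice perfused through the heart with RNA Later. In each library 8 neuron genes summed to between 12650 and 13550 CPM (counts scaled to library size), and the 10 macrophage markers to between 119 and 167 CPM. The libraries held 44123208 to 73580338 counts, and even the sparsest marker, Trem2, had 33 counts or more in every library. A bulk level cannot tell fewer macrophages from less RNA per macrophage.

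Resident macrophages of the DRG lie around the cell bodies of sensory neurons and along the vessels of the ganglion, where they take up debris and respond to injury of the peripheral axon. Csf1r, the receptor for CSF1 and IL34, keeps them alive. Tyrobp (DAP12) is the signalling adaptor of Trem2, a receptor for lipids and apoptotic cells. Cd163 (a scavenger receptor for haemoglobin bound to haptoglobin) and Mrc1 (the mannose receptor CD206) mark macrophages near vessels, Cd68 is a lysosomal glycoprotein, Aif1 encodes the actin-binding protein IBA1, and Lyz2 is lysozyme M. Itgam, the CD11b chain of complement receptor 3, and Ptprc, the phosphatase CD45, are shared with other blood leukocytes. Lyz2 is also strong in neutrophils and monocytes.

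The promoters of Itgam, Ptprc, Cd163 and Lyz2 are shown because these 4 markers, described below, had both libraries of 3d and of 30d above both libraries of 0d, as had 7.15% of all genes tested. They are the 250 bases before the transcription start of RefSeq on GRCm38.p6, the assembly called mm10, each written along its gene's strand. Capitals mark GAGGAA or its reverse complement TTCCTC, the core of the PU box that the myeloid factor PU.1 binds. The window of Itgam is chr7:128062390-128062639 on the plus strand, that of Ptprc chr1:138175306-138175555 on the minus strand, that of Cd163 chr6:124304401-124304650 on the plus strand and that of Lyz2 chr10:117282273-117282522 on the minus strand.
Itgam: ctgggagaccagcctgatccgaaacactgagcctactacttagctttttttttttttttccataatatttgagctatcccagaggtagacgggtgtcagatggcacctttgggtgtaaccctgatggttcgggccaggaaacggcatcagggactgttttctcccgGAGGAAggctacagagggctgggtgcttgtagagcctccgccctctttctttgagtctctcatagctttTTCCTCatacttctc
Ptprc: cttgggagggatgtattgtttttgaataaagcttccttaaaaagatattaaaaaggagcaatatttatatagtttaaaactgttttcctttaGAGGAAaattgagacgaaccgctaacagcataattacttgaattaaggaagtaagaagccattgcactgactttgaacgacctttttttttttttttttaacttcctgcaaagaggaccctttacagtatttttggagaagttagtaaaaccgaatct
Cd163: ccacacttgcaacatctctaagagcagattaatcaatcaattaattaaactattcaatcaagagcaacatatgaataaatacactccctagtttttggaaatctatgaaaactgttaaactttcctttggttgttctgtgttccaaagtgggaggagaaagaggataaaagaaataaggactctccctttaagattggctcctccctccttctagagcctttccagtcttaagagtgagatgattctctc
Lyz2: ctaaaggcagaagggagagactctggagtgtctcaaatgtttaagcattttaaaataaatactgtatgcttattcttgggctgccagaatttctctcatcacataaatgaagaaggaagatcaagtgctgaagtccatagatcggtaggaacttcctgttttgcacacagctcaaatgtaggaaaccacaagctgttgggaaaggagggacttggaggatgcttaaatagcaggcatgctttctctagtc
Itgam held the motif once in each direction and Ptprc once, while the letters were not found in the windows of Cd163 and Lyz2. Of the 8 markers matched in the RefSeq table, 6 held the motif on either strand, also Aif1, Cd68, Mrc1 and Trem2, beside 23.3% of the 32851 start sites in the table. A match of 6 letters is a description of the sequence, and binding was not measured. Spi1, which encodes PU.1 and was named after its values were seen, lay between 2.83 and 4.88 CPM over the 8 libraries, with no call in any comparison.

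The markers covered a wide range of levels. On the scale of CPM per kilobase of exon (RPKM), Lyz2 was the most abundant, with a mean of 55.0 ± 8.09 (SD over the 8 libraries) and rank 1391 of 24421 genes. Tyrobp followed at 9.46 ± 1.23 RPKM and Csf1r at 7.73 ± 0.553 RPKM. The ranges of this pair, 7.47 to 11.8 and 6.82 to 8.66 RPKM, overlapped. Cd68 at 3.43 ± 0.498 RPKM and Mrc1 at 3.02 ± 0.306 RPKM were also indistinguishable by their ranges, and both lay below every Csf1r value. The remaining markers, Cd163 (1.58 RPKM), Aif1 (1.57), Itgam (1.27), Ptprc (1.08) and Trem2 (0.868), overlapped each other and stayed below every Mrc1 value. The gap from Csf1r down to Itgam and Ptprc was present at all 4 time points.

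**Figure D1:**
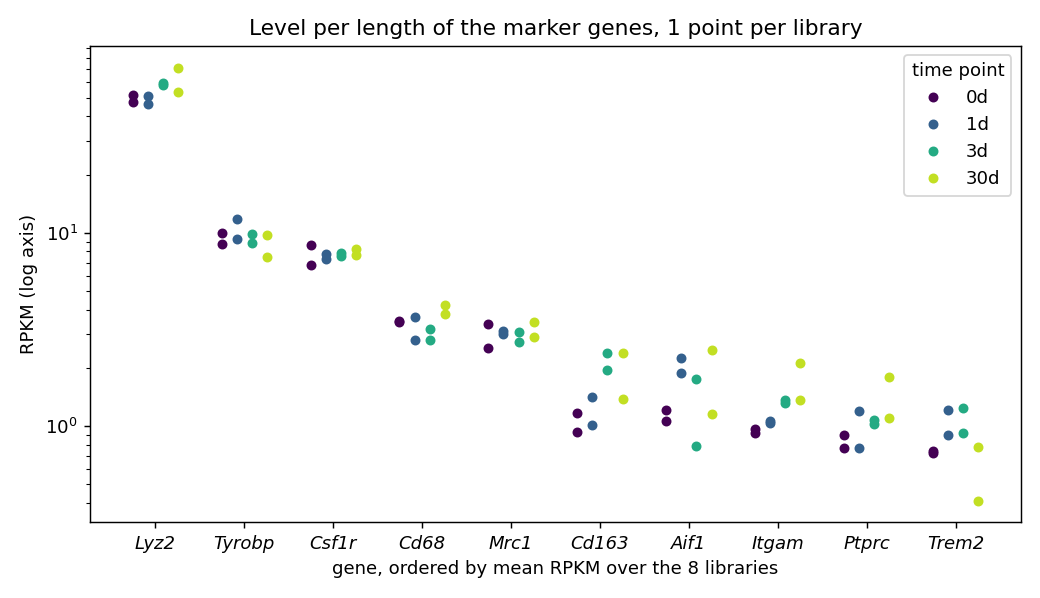
RPKM of the 10 markers on a log axis, ordered by their mean, with 1 point per library and the time points in colour. Lyz2 sat between 46.6 and 71.6 RPKM, while Trem2 sat between 0.411 and 1.24 RPKM.

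None of the 10 markers was differentially expressed in any of the 6 comparisons between time points (edgeR quasi-likelihood test, Benjamini-Hochberg adjusted p under 0.05 over all genes tested). With 1d against 0d, 0.346% of all genes tested passed this threshold, with 3d against 0d 0.219% and with 30d against 0d 0.0231%. Between the later time points 0.289% passed for 3d against 1d, 0.935% for 30d against 3d and 0.571% for 30d against 1d. These shares moved widely with 1 library left out. Against 0d the number of genes called went from 60 to between 26 and 111 at 1d, from 38 to between 1 and 121 at 3d and from 4 to between 1 and 202 at 30d. It went from 50 to between 5 and 117 for 3d against 1d, from 162 to between 12 and 525 for 30d against 3d and from 99 to between 51 and 359 for 30d against 1d. The lowest counts came without replicate 1 of 3d, except for 1d against 0d (without replicate 1 of 1d) and 30d against 1d (without replicate 2 of 1d). The highest came without replicate 1 of 30d, except for 30d against 0d (without replicate 2 of 30d). At shares this small, no call among 10 genes is close to the background. At an unadjusted p under 0.05 the markers numbered 0, 2 and 4 against 0d at 1d, 3d and 30d, then 1 for 3d against 1d, 1 for 30d against 3d and 4 for 30d against 1d. Of all genes tested, 4.47%, 5.94% and 12.3% were under it against 0d at 1d, 3d and 30d, then 4.24%, 13% and 11.7%. DESeq2 called Cd163 at 3d and Itgam at 30d against 0d, and limma-voom called no marker. The median log2 fold change (log2FC) of the markers against 0d was 0.16 at 1d, 0.21 at 3d and 0.27 at 30d, where the medians over all genes lay between -0.0032 and 0. These 3 comparisons share the 0d libraries. With 1 library left out the medians ranged from 0.03 (without replicate 1 of 1d) to 0.27 (without replicate 1 of 0d) at 1d, from 0.15 to 0.28 at 3d and from 0.12 (without replicate 1 of 30d) to 0.30 at 30d, so their ranges overlapped. Individual markers spread widely around these medians, from -0.31 for Trem2 to 0.88 for Itgam at 30d.

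**Figure D2:**
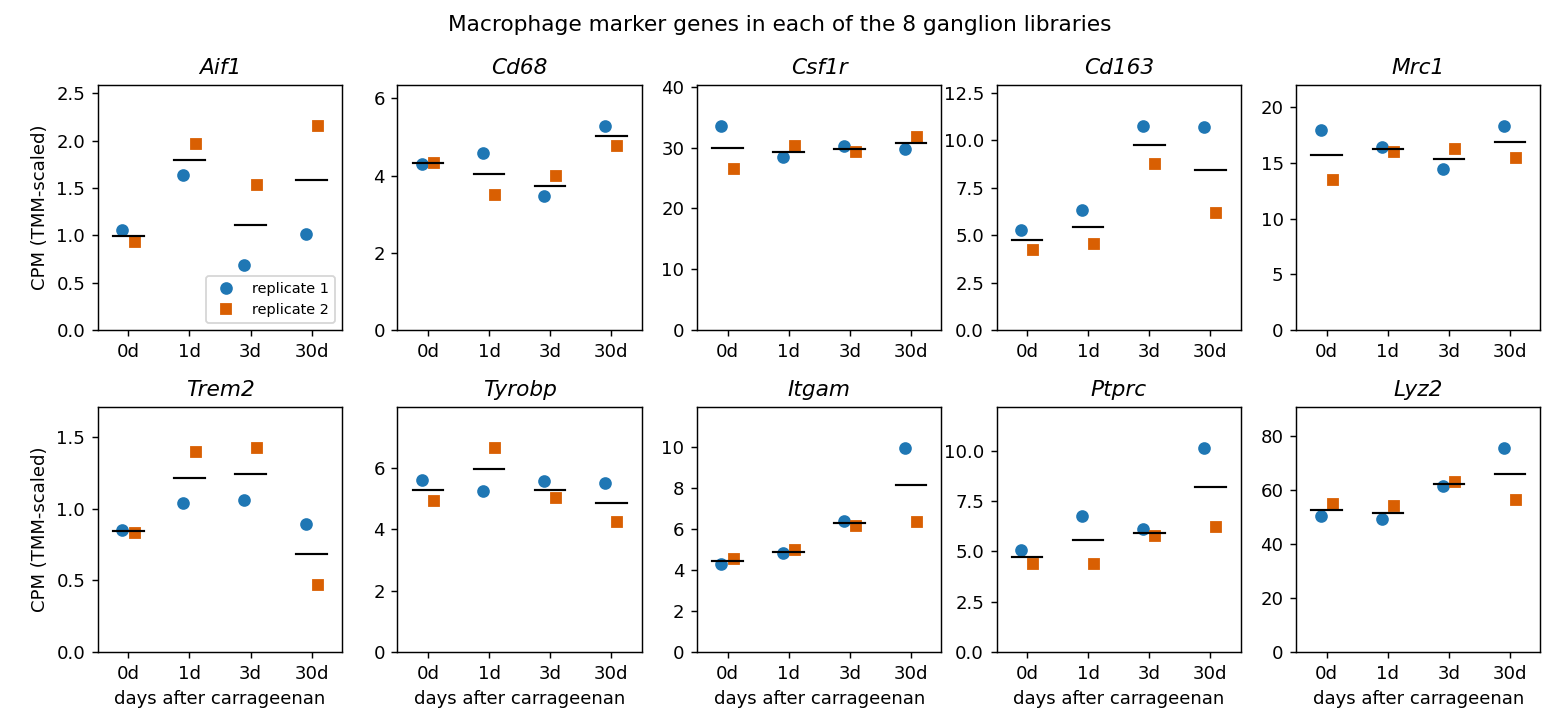
CPM, scaled by TMM library factors, of each marker in each library by time point. Circles are replicate 1, squares are replicate 2, bars are group means, and each axis starts at 0. Csf1r stayed between 26.4 and 33.6 CPM, while Itgam was highest, at 9.97 CPM, in replicate 1 of 30d.

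Csf1r, the growth factor receptor on which these cells depend, had the smallest standard errors and, with all libraries, the log2FC nearest to 0 at 30d. Without replicate 2 of 0d Mrc1 was nearer, at -0.09 beside -0.13 for Csf1r. Its libraries held 33.6 and 26.4 CPM (0d), 28.4 and 30.2 (1d), 30.3 and 29.3 (3d) and 29.8 and 31.8 (30d). The 0d pools were the farthest apart, and all 6 later values lay between them. Against 0d its log2FC was -0.03 at 1d, -0.01 at 3d and 0.04 at 30d, with 95% intervals of -0.25 to 0.18, -0.22 to 0.20 and -0.17 to 0.25. The sign of each depended on the 0d pools. Without replicate 2 of 0d they were -0.20, -0.17 and -0.13, and without replicate 1 of 0d 0.15, 0.17 and 0.22.

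Mrc1, the mannose receptor of perivascular macrophages, held 18.0 and 13.45 CPM (0d), 16.5 and 16.0 (1d), 14.5 and 16.25 (3d) and 18.3 and 15.4 (30d). Every time point overlapped 0d, and the log2FC at 30d was 0.10 (95% interval -0.18 to 0.39). Tyrobp, the adaptor, held 5.61 and 4.94 CPM (0d), 5.26 and 6.66 (1d), 5.58 and 5.02 (3d) and 5.51 and 4.23 (30d). Its log2FC was 0.18 at 1d, 0.01 at 3d and -0.12 at 30d (95% interval at 30d -0.52 to 0.28). With 1 of the compared libraries left out these ran from -0.002 to 0.34, from -0.08 to 0.10 and from -0.32 to 0.06. Cd68, the lysosomal marker, held 4.31 and 4.34 CPM (0d), 4.596 and 3.49 (1d), 3.48 and 3.98 (3d) and 5.29 and 4.76 (30d). Both 3d libraries lay below 0d and both 30d libraries above it. The 30d libraries also lay above both 3d libraries, with a log2FC of 0.43 (standard error 0.191, edgeR adjusted p = 0.360). The 95% intervals of Csf1r, Mrc1, Tyrobp and Cd68 against 0d all lay within 1 of 0 on the log2 scale, which bounds their changes but does not show equal levels.

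Cd163, the haemoglobin scavenger receptor (gene at chr6:124304651-124330527 of mm10), was the marker with the widest separation at 3d. It held 5.25 and 4.21 CPM (0d), 6.32 and 4.54 (1d), 10.75 and 8.755 (3d) and 10.7 and 6.17 (30d). Both 3d libraries lay above every 0d and 1d library, and the 30d libraries lay above 0d but apart from each other. The log2FC against 0d was 1.05 at 3d (standard error 0.263, 95% interval 0.46 to 1.63, edgeR adjusted p = 0.310) and 0.83 at 30d (standard error 0.264, adjusted p = 0.263). Against 1d it was 0.84 at 3d (adjusted p = 0.689). The call at 3d depended on what was fitted beside these libraries. With 0d and 3d fitted alone the adjusted p was 0.00653, with DESeq2 it was 0.00701, and without replicate 1 or 2 of 30d, which take no part in this comparison, it was 0.00947 and 0.0101. With 1 of the compared libraries left out in turn the log2FC stayed between 0.89 and 1.21, with an adjusted p of at least 0.430. Mrc1, with which Cd163 is paired as a perivascular marker, had a log2FC of -0.03 at 3d (95% interval -0.31 to 0.26).

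Itgam, the CD11b chain (chr7:128062640-128118491), had higher means at each later time point. It held 4.33 and 4.53 CPM (0d), 4.855 and 4.97 (1d), 6.39 and 6.17 (3d) and 9.97 and 6.355 (30d). The groups of 0d, 1d and 3d did not overlap, and 1 of the 30d libraries lay within the range of 3d. The log2FC against 0d was 0.15 at 1d, 0.50 at 3d (edgeR adjusted p = 0.699) and 0.88 at 30d (standard error 0.194, 95% interval 0.46 to 1.29, edgeR adjusted p = 0.100). By DESeq2 the adjusted p at 30d was 0.0142, and without the filter on low counts edgeR gave 0.0103. Of the 50-base words of the Itgam transcript, 72.4% occur in other GENCODE vM21 genes. Gm49368, which is not among the counted genes, shares the most of these words, so its RNA may be counted as Itgam.

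Ptprc, the CD45 phosphatase of all leukocytes (chr1:138062859-138175305), held 5.07 and 4.37 CPM (0d), 6.78 and 4.38 (1d), 6.10 and 5.77 (3d) and 10.1 and 6.21 (30d). The 3d and 30d libraries lay above 0d, while the 1d libraries overlapped both groups. Its log2FC at 30d was 0.79 (standard error 0.243, edgeR adjusted p = 0.237). Lyz2, lysozyme M (chr10:117277541-117282272), held 50.4 and 54.8 CPM (0d), 49.2 and 54.1 (1d), 61.5 and 63.0 (3d) and 75.6 and 56.5 (30d). Both 3d and both 30d libraries exceeded every 0d and 1d library. The log2FC was 0.24 at 3d (edgeR adjusted p = 0.917) and 0.33 at 30d (standard error 0.127, adjusted p = 0.371). Of the 50-base words of Lyz2, 15.4% occur in other genes, its neighbour Lyz1 sharing the most, so the Lyz2 count is less certain.

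At 30d these genes rested on replicate 1, which held the highest CPM of all 8 libraries for Itgam, Ptprc and Lyz2. Without it the 30d log2FC against 0d was 0.52 for Itgam, 0.40 for Ptprc, 0.10 for Lyz2 and 0.39 for Cd163. Without replicate 2 of 30d the values were 1.17, 1.11, 0.52 and 1.18, and edgeR then called all 4 (adjusted p = 0.00237, 0.0195, 0.00224 and 0.0114). In that fit 30d is 1 library, assumed to vary like the other groups, and 202 of all genes were called for 30d against 0d, beside 4 with all libraries. The same library stood apart in genes of blood and of other cell types. Its Schwann cell myelin genes summed to 5379 CPM, the lowest of all libraries (7599 to 10710 in the others), and its skeletal muscle genes to 106 CPM, beside 16.1 in replicate 2 of 30d. The 9 neutrophil genes measured of 10 listed, among them S100a8, S100a9 and Camp, summed to 49.0 and 105 CPM (0d), 118 and 125 (1d), 156 and 158 (3d) and 250 and 104 (30d). None of the 9 was called, and none was at 0. All 9 were higher than at 0d by fitted fold change at each later time point, with medians of 0.65, 1.05 and 1.19 on the log2 scale. The 6 red blood cell genes, of which Hba-a1 and Hba-a2 carry identical counts, summed to 146 and 294 CPM (0d), 272 and 280 (1d), 187 and 195 (3d) and 544 and 287 (30d), with none called. The 8 monocyte genes summed to 66.0 and 61.1 CPM (0d), 66.7 and 61.8 (1d), 71.2 and 71.6 (3d) and 75.7 and 64.8 (30d). Nr4a1 and Ace, named after their values were seen, were the largest parts of these sums, at 33.5 to 42.9 and 10.25 to 16.3 CPM. None of the 8 was called, and 7 were above 0d by fitted value at each later time point, with medians of 0.87, 1.00 and 0.94 on the log2 scale. The part of blood leukocytes, and of the other cell types, in the values of Itgam, Ptprc, Lyz2 and Cd163 was not tested.

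**Figure D3:**
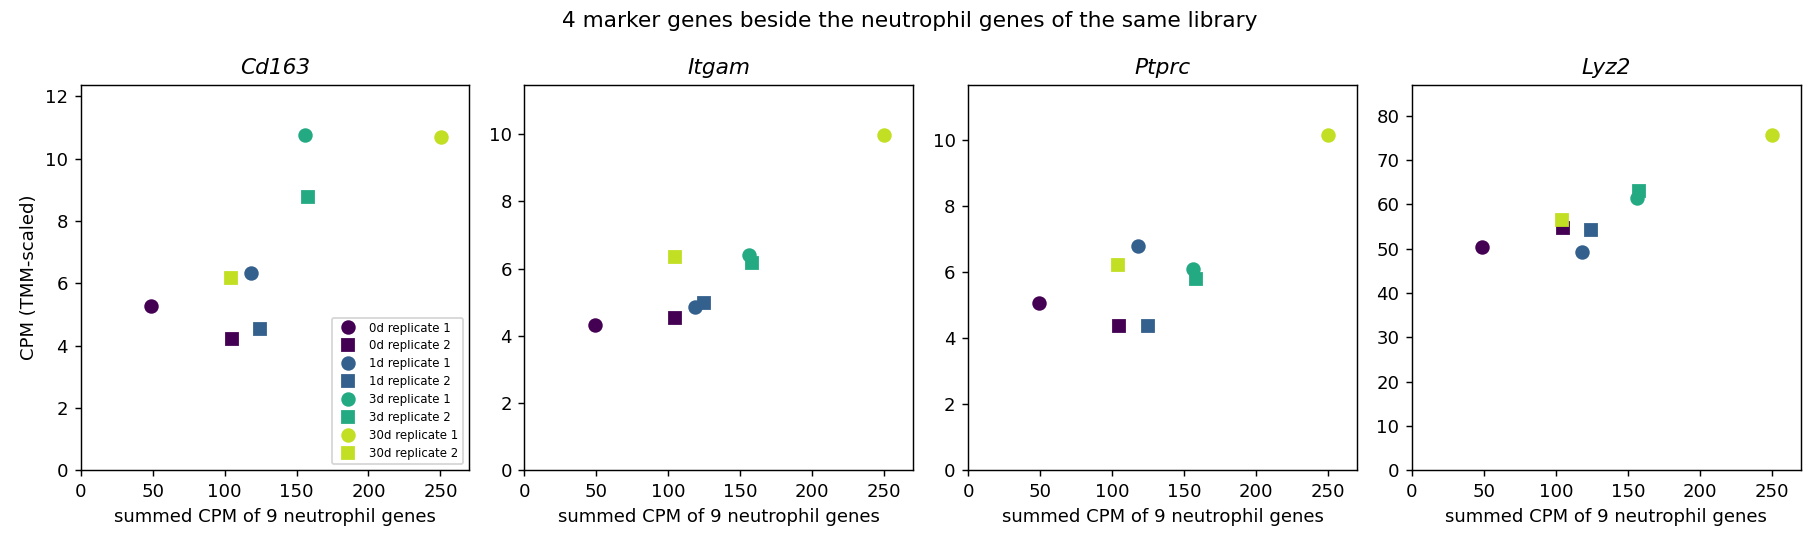
CPM of Cd163, Itgam, Ptprc and Lyz2 (y axes) against the summed CPM of 9 neutrophil genes (x axes) in the same library, with time points in colour and replicate 1 as circles, 2 as squares. Replicate 1 of 30d lies at 250 CPM of neutrophil genes and holds the highest Itgam, Ptprc and Lyz2, whereas replicate 2 of 30d lies at 104 CPM, beside replicate 2 of 0d.

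Over the 8 libraries the log2 CPM of Itgam and Lyz2 had a Pearson correlation of 0.93, Itgam and Ptprc of 0.85, and Itgam and Cd163 of 0.80. Without replicate 1 of 30d (7 libraries) these were 0.81, 0.56 and 0.78, and that of Ptprc and Lyz2 went from 0.67 to 0.11. With the log2 sum of the neutrophil genes, Lyz2 had a correlation of 0.82, Itgam of 0.81, Cd163 of 0.68 and Ptprc of 0.63, while Csf1r was at -0.43, Cd68 at 0.11, Tyrobp at 0.06 and Mrc1 at 0.01. Without replicate 1 of 30d the first 4 values were 0.68, 0.67, 0.54 and 0.27, and Csf1r was at -0.52, Cd68 at -0.44, Tyrobp at -0.013 and Mrc1 at -0.50. Trem2 and its adaptor Tyrobp had a correlation of 0.72 with each other and of -0.18 to -0.11 with Itgam and Ptprc. All these points share libraries and time points, so the correlations describe the 8 libraries only.

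Aif1 and Trem2 were measured on few reads. Aif1, the IBA1 gene, held 1.06 and 0.929 CPM (0d), 1.64 and 1.96 (1d), 0.690 and 1.53 (3d) and 1.01 and 2.16 (30d). Both 1d libraries exceeded 0d, with a log2FC of 0.86 (standard error 0.437, 95% interval -0.08 to 1.79, edgeR adjusted p = 1), and the later pairs enclosed or overlapped 0d. Trem2 held 0.851 and 0.831 CPM (0d), 1.04 and 1.39 (1d), 1.06 and 1.42 (3d) and 0.893 and 0.471 (30d). The 1d and 3d libraries lay above 0d and above 30d. Its log2FC was 0.56 at 3d against 0d (95% interval -0.34 to 1.46) and -0.87 at 30d against 3d (standard error 0.423, edgeR adjusted p = 0.403). With 1 of the compared libraries left out these ran from 0.33 to 0.76 and from -1.40 to -0.48. The intervals of Aif1 at 1d and Trem2 at 3d hold both 0 and 1, so neither the presence nor the absence of a change of that size could be read from these libraries.

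**Figure D4:**
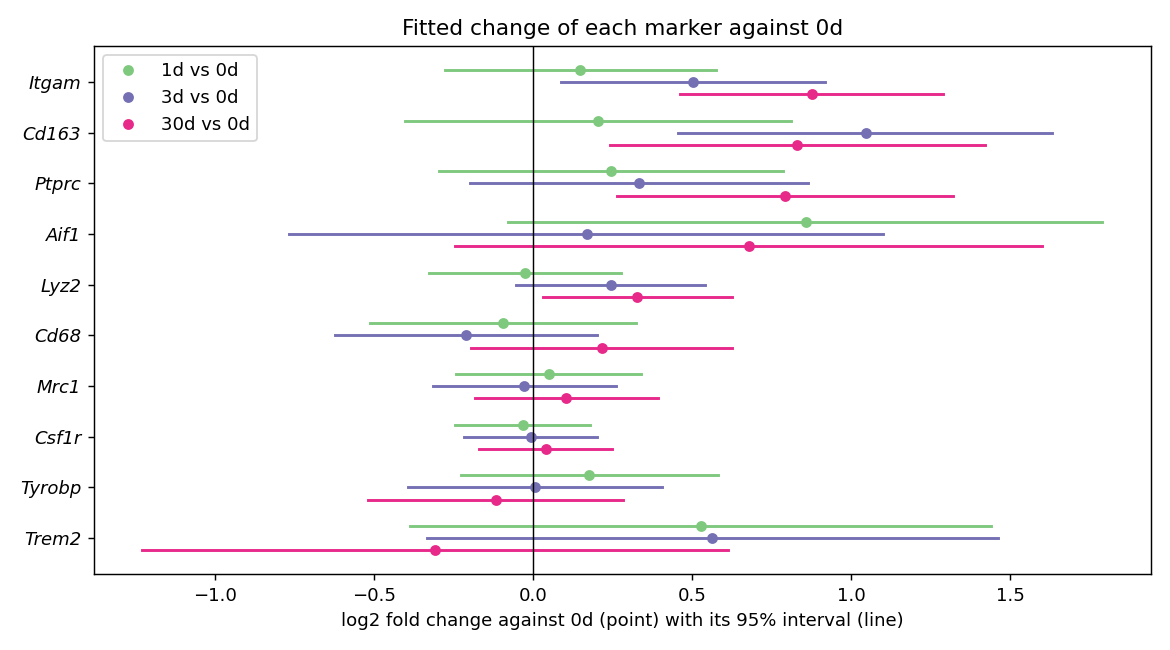
Fitted log2FC of each marker at 1d, 3d and 30d against 0d (points) with 95% intervals (lines), ordered by the value at 30d. The intervals of Itgam and Cd163 lie above 0 at 3d and 30d, and those of Ptprc and Lyz2 at 30d, but none of these passed the adjustment over 17328 genes, and Csf1r, Mrc1 and Tyrobp cross 0 throughout.

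Counted by overlap, 3 markers had both 1d libraries above both 0d libraries (Aif1, Trem2 and Itgam), where 15.5% of all genes tested did. At 3d there were 5 (Cd163, Trem2, Itgam, Ptprc and Lyz2), beside 19.9% of all genes, and at 30d there were 5 (Cd68, Cd163, Itgam, Ptprc and Lyz2), beside 19.4%. Only Cd68 at 3d was wholly below 0d in these 3 comparisons, where 16.4%, 19.6% and 20.2% of all genes were at 1d, 3d and 30d. The genes whose profile over the 8 libraries was most like the mean z-score of the markers were Slc6a6 (r = 0.98), Etaa1os (0.97), Slc23a2 (0.97), Lsp1 (0.97), March6 (0.96), Bmp6 (0.96), Unk (0.96), Tep1 (0.96), Rbbp6 (0.96) and Camk1d (0.95). They are the highest of 17328 genes over 8 libraries. This mean score was highest in replicate 1 of 30d (0.95) and lowest in replicate 2 of 0d (-0.86). It was not a profile shared by all markers. Cd163, Mrc1, Itgam, Ptprc and Lyz2 had correlations of 0.58 to 0.74 with the mean of the other markers. Aif1, Trem2, Tyrobp, Csf1r and Cd68 had correlations of -0.15, -0.04, -0.002, 0.14 and 0.17.

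Other macrophage genes were read in the same fit. Of 24 further identity genes 1 was called, Cx3cr1, the fractalkine receptor that marks microglia and many tissue macrophages. It held 10.85 and 10.87 CPM (0d), 8.13 and 9.92 (1d), 5.64 and 5.06 (3d) and 8.37 and 7.41 (30d). Every later library lay below 0d, and the 3d libraries lay below all others. It fell at 3d against 0d, with a log2FC of -1.02 (standard error 0.145, edgeR adjusted p = 0.00794), and against 1d, with -0.75 (adjusted p = 0.0476, and over 0.05 in 3 of 9 other settings). The 3d fall against 0d was called in all 9 other settings, but not without replicate 1 or 2 of 3d (log2FC -1.10 and -0.94, adjusted p = 0.143 and 0.266). The call against 1d was lost when any library of 0d, 1d or 3d was left out, with log2FC between -0.89 and -0.60. At the same time point Csf1r was at -0.01 and Cd163 at 1.05, neither of them called. The 24 genes had a median log2FC of 0.18 at 1d, 0.05 at 3d and 0.01 at 30d. Among those named after their values were seen, Adgre1 (F4/80) ranged from 5.23 to 7.26 CPM, and the complement genes C1qa, C1qb and C1qc had log2FC of 0.30, 0.42 and 0.30 at 1d and of -0.05 to 0.06 at 3d and 30d, without a call.

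None of 12 genes of perivascular macrophages was called. Lyve1, a hyaluronan receptor of these cells, held 4.18 and 3.39 CPM (0d), 4.53 and 6.11 (1d), 7.67 and 6.80 (3d) and 4.63 and 4.08 (30d). Its mean, like that of Cd163, was highest at 3d, with a log2FC of 0.94 (standard error 0.191, edgeR adjusted p = 0.0826) that passed in 3 of 9 other settings. The list as a whole had 6 genes above and 6 below 0d at 3d, with a median of -0.02. Timd4 and Cbr2 were the others with the smallest p, at log2FC of 2.97 for 30d against 0d on at most 0.457 CPM (adjusted p = 0.235) and -0.49 for 30d against 1d (adjusted p = 0.373).

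No ligand of Csf1r passed the test either. Of 10 genes listed as CSF1R ligands, signal partners or related receptor chains (Csf2ra, Csf2rb and Csf3r), none was called. Csf1 held 21.5 and 17.1 CPM (0d) and 25.3 and 24.7 CPM (30d), a log2FC of 0.37 (edgeR adjusted p = 0.171) that passed in 1 of 9 other settings (0.0495) and was 0.22 without replicate 2 of 0d. Il34, the other ligand, was at 27.85 and 28.4 CPM (1d) and 34.2 and 32.35 (3d), a log2FC of 0.24 (adjusted p = 0.595). Csf2ra, the GM-CSF receptor chain, was at 0.46 for 30d against 3d (adjusted p = 0.106) and passed in 2 of 9 (down to 0.0276).

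Of 10 genes listed around Trem2 and Tyrobp, Siglec1 and Apoe were called. Siglec1 (CD169), an interferon-inducible sialic acid receptor of macrophages, held 2.85 and 2.02 CPM (0d), 6.84 and 5.34 (1d), 2.44 and 2.46 (3d) and 2.51 and 2.47 (30d). It rose at 1d, with a log2FC of 1.32 against 0d (standard error 0.230, edgeR adjusted p = 0.0167), and fell by 3d, with -1.31 against 1d (adjusted p = 0.0214). At 30d against 1d it was at -1.29 (adjusted p = 0.0159). All 3 calls held in the 9 other settings. Without replicate 1 of 1d none of them did (log2FC 1.13, -1.12 and -1.10), the first was also lost without replicate 2 of 0d (1.09, adjusted p = 0.131) and the second without either 3d replicate (adjusted p = 0.465 and 0.404). The 10 markers had no call in the same contrasts, and Aif1, at 0.86, had the largest marker log2FC at 1d. Apoe, a lipid carrier and Trem2 ligand that glia also express, held 2286 and 2243 CPM (0d), 2095 and 2221 (1d), 2179 and 2184 (3d) and 1819 and 1911 (30d). Both 30d libraries lay below all others. It was called lower at 30d than at 0d, 1d and 3d, with log2FC of -0.28, -0.21 and -0.23 (edgeR adjusted p = 0.0322, 0.0213 and 0.0128). The 3 calls held in 7, 8 and 9 of 9 other settings, with adjusted p up to 0.102, 0.0899 and 0.0291. Leaving out either 3d replicate ended all 3, although the log2FC hardly moved, as did leaving out replicate 2 of 1d (-0.17) or replicate 1 of 30d (-0.18) for the call against 1d. Among the glia, 5 of 6 satellite glia genes and 5 of 5 Schwann cell myelin genes were also below 0d at 30d by fitted value, with median log2FC of -0.16 and -0.38 and none called. The satellite glia genes summed to 1307 and 1299 CPM (0d) and 1147 and 1210 (30d). The part of glia in the Apoe values was not tested. Trem2 itself was at -0.31, -0.84 and -0.87 in these comparisons, without a call. Without replicate 1 of 30d it was at -0.83, -1.36 and -1.40, and without replicate 2 of 30d at 0.09, -0.44 and -0.48.

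Of 6 genes listed for leukocyte integrins and their activators, 5 were tested (Itgb2, Itgal, Itgax, Fermt3 and Tln1) and none was called. All 5 were above 0d by fitted value at 1d, 3d and 30d. Itgb2, the CD18 chain that pairs with Itgam and was named after its values were seen, held 4.67 and 4.99 CPM (0d) and 8.76 and 4.03 (30d), with the same replicate high as for Itgam. Tln1, Fermt3 and Itgal were at log2FC of 0.13, 0.39 and 0.49 at 30d (edgeR adjusted p = 0.294, 0.479 and 0.592). Without replicate 1 of 30d, Itgal was at -0.17 and Fermt3 at -0.00152, and with 1 library left out Tln1 was at 0.0708 or more. None of 14 genes of activated macrophages was called. Lpl was at 0.61 for 30d against 1d (adjusted p = 0.187), which passed in 2 of 9 other settings (down to 0.0341) and was 0.29 without replicate 1 of 30d and 0.87 without replicate 2. Cxcl10 was at -1.56 for 3d against 1d (adjusted p = 0.514), which passed in 3 of 9 (down to 0.00144) and was -1.03 without replicate 1 of 1d. Nos2 had at most 0.329 CPM in any library.

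Among antigen presentation genes, 4 of 6 MHC class II genes were called in at least 1 comparison. Cd74 and H2-Eb1 rose at 1d against 0d, with log2FC of 0.32 and 0.34 (edgeR adjusted p = 0.00577 and 0.0220). From 1d to 3d, H2-Aa, H2-Ab1, H2-Eb1 and Cd74 fell, with log2FC of -0.46, -0.42, -0.37 and -0.34 (adjusted p = 0.00538, 0.0127, 0.0151 and 0.00639). From 3d to 30d, H2-Aa, H2-Ab1 and H2-Eb1 rose, at 0.32, 0.31 and 0.34 (adjusted p = 0.0313, 0.0385 and 0.0157). H2-Aa and H2-Ab1 were at 0.33 and 0.28 at 1d against 0d, without a call (adjusted p = 0.0502 and 0.15). The libraries of H2-Aa held 45.5 and 41.2 CPM (0d), 55.6 and 53.1 (1d), 39.5 and 39.7 (3d) and 49.6 and 49.2 (30d). With 1 library left out the calls from 1d to 3d were lost without replicate 1 of 1d or either 3d replicate, and those from 3d to 30d without either 3d replicate or replicate 2 of 30d, while the log2FC stayed between -0.491 and -0.298 and between 0.295 and 0.374. H2-Eb1 was also lost from 1d to 3d without replicate 2 of 1d (adjusted p = 0.0740). The call of Cd74 at 1d was lost without replicate 1 of 1d (log2FC 0.29), and that of H2-Eb1 without any library of 0d, 1d or 3d (0.33 to 0.35). Without robust estimation H2-Aa and H2-Ab1 were not called from 3d to 30d (adjusted p = 0.0551 and 0.0653), nor was H2-Eb1 at 1d by limma-voom or with the compared groups alone (0.0525 and 0.0575). These are the antigen-presenting molecules of macrophages, dendritic cells and B cells, and which of these cells carried them cannot be told from the ganglion as a whole. Whether these changes differed from those of the 10 markers was not tested.

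Lists of other cell types held few calls in these comparisons. No gene was called among 10 of T, B and NK cells, 6 of satellite glia, 5 of Schwann cell myelin, 5 of endothelium and 6 of skeletal muscle. Scn10a, of 8 neuron genes, was called at 3d against 0d (log2FC 0.22, edgeR adjusted p = 0.0499) and Lum, of 6 fibroblast genes, at 1d against 0d (-0.49, adjusted p = 0.0326). Replicate 1 of 0d had the highest sums of Schwann cell, skeletal muscle and fibroblast genes of all libraries, 10710, 130 and 1917 CPM, and the lowest sum of neutrophil genes. The lymphocyte list summed to at most 9.84 CPM, in replicate 1 of 30d. With replicate 1 of 0d and replicate 1 of 30d both left out, a choice made after these values were seen, the markers called were Cd163 at 3d against 0d and, against 1d, Cd163 and Lyz2, with log2FC of 1.21, 0.84 and 0.27 (edgeR adjusted p = 7.25e-4, 0.00244 and 0.00633). Cd163 was then also lower at 30d than at 3d (-0.66, adjusted p = 0.0296), and none of the 10 markers was called at 30d against 0d. With 1 library each left at 0d and 30d, the spread came from 1d and 3d alone and was assumed for the others. Over all genes this fit called 318 for 3d against 0d, 284 for 3d against 1d, 1617 for 30d against 3d and 1133 for 30d against 0d, beside 38, 50, 162 and 4 with all libraries.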

How the data were processed

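Whole-ganglion RNA was sequenced on a HiSeq instrument after TruSeq preparation. Per the labels and the study's methods, the authors used cutadapt 2.10 for trimming and STAR 2.7.5a for alignment to mm10, and counted read pairs on UCSC genes with featureCounts 2.0.1, without strand. Pairs on several genes counted for each, and reads mapping to several places did not count. The deposited values are raw counts per gene.

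Here edgeR 4.0.16 (R 4.3.3) filtered genes with filterByExpr, scaled libraries by TMM (factors 0.993 to 1.01) and fitted all 8 libraries with time point as the only term. Robust quasi-likelihood tests gave 6 comparisons, adjusted by the Benjamini-Hochberg method. Standard errors are the size of the log2FC over the square root of F, and 95% intervals use the fit's degrees of freedom. Log2 CPM used a prior count of 2. RPKM divides CPM by the deposited exon length. With 2 libraries per group, permuting the libraries of 2 compared groups cannot give a p-value under 0.05. The fits, also with DESeq2 1.42.0 and limma 3.58.1, were tested on simulated data.

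The markers and the 17 other gene lists were chosen with earlier results of these data known. The genes named are the 10 markers, called genes of each macrophage list (at most 5, otherwise the 3 with the smallest p), and the 10 genes most correlated with the markers. Promoters came from RefSeq. No column of the table was left unused. The chi-square per gene between replicates was 15.6, 8.72, 7.29 and 25.8 at 0d, 1d, 3d and 30d, so no library was a copy of another.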

Additional observations from a re-analysis of the deposited data

How the results depend on the processing

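The alternatives were other size factors, no filter or a CPM filter, no robust estimation, DESeq2, limma-voom, the compared groups alone, a replicate block, each library left out in turn and, added after seeing the data, replicate 1 of 0d and of 30d both left out. No marker was called with all libraries in the reported analysis, and 45 values of single markers took the opposite sign under an alternative, none of them called. For 3d against 0d, DESeq2, the compared groups alone and both libraries left out each called 1 marker, Cd163. For 30d against 0d, DESeq2 and no filter called 1, Itgam, as did no filter for 30d against 1d. For 3d against 1d the groups alone called 2, Cd163 and Lyz2, as did leaving both libraries out, which called 1 for 30d against 3d and gave medians of 0.272 for 1d against 0d and 0.00853 for 30d against 3d. With the replicate block 1 marker, Cd163, was called at 3d and at 30d against 0d and again between 1d and 3d. The replicate numbers do not pair the libraries, since the deviations of libraries with the same number had correlations of -0.0144 to 0.0438 across genes.

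With 1 library left out, some fits called markers, most of all at 30d against 0d and 1d without replicate 2 of 30d. The calls over all genes also moved widely in such fits, as given above, so these marker calls cannot be read alone. The median log2FC ranged from 0.0344 to 0.273 for 1d against 0d, from 0.119 to 0.304 for 30d against 0d, from 0.00847 to 0.191 for 30d against 3d and from 0.122 to 0.281 for 30d against 1d. The cause was not tested. Over all genes the count of calls for 30d against 0d, 4 here, was 177 without the filter, 184 by DESeq2, 69 with the replicate block and 0 without robust estimation, and for 3d against 0d, 38 here, it was 89, 109, 50 and 20. The filter left off and DESeq2 gave 95 and 110 for 1d against 0d (60 here), 99 and 110 for 3d against 1d (50 here), 358 and 378 for 30d against 3d (162 here) and 213 and 229 for 30d against 1d (99 here). With the groups alone it was 121 for 3d against 0d, 0 for 30d against 0d, 260 for 3d against 1d and 273 for 30d against 3d. The replicate block gave 77 for 3d against 1d and 159 for 30d against 1d, no robust estimation 92 for 30d against 3d, and limma-voom 25 for 3d and 2 for 30d against 0d. Both libraries left out gave 151 for 1d against 0d and 1234 for 30d against 1d. Aif1 and Trem2 rested on the fewest reads, with intervals too wide to read a change from.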
